A study of Mus musculus with 6 samples.

Results

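The genes described here encode the REEP and reticulon families, membrane proteins that give the endoplasmic reticulum its shape. All 10 were found in the value table by their gene symbol in the platform annotation, among 23185 genes that had 1 symbol each: Reep1, Reep2, Reep3, Reep4, Reep5, Reep6, Rtn1, Rtn2, Rtn3 and Rtn4. The families were chosen from the same knockout and wild type values that are given here, with the large difference of Reep6 already known. The differences and calls of these 10 genes are therefore a description of this contrast and no independent test of it.

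Hearts of FVB mice, an inbred laboratory strain, were profiled on 6 Affymetrix arrays, 3 from wild type animals and 3 from animals lacking irisin. Irisin is a hormone released by cleavage of the membrane protein encoded by Fndc5. The knockout line was made by injecting zygotes with Cas9 and 5 guide RNAs, which were given without their target positions. All animals, with littermates as controls, received standard chow with 10% fat for 24 weeks. The RNA is labelled as cardiomyocyte RNA in one field and as myocardium in another. Whether the 3 arrays of each genotype come from separate hearts is only implied by the labels, so p-values cover the array-to-array spread, which could be technical. The labels name no batch of preparation or scanning, and genotype and such a batch cannot be told apart.

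The endoplasmic reticulum is a continuous membrane of flat sheets and narrow tubules. REEP proteins and reticulons insert hairpin-shaped membrane segments that wedge the outer leaflet apart and bend the membrane into tubules and sheet edges. Atlastin GTPases fuse tubules with each other, lunapark sits at the junctions where tubules meet, and CLIMP63 (Ckap4) holds sheets apart. In heart muscle a specialised part of this network, the sarcoplasmic reticulum, stores calcium and releases it at each beat, and REEP5 is known as a shaper of that compartment.

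The windows upstream of the gene start are shown first for the members that had 1 promoter entry and whose 3 knockout values all lay above the 3 wild type values, namely Reep1, Rtn2 and Rtn3. They come from RefSeq (GRCm38.p6) and cover the 250 bases before the start, read 5′ to 3′ on the strand of the gene: chr6:71707431-71707680 on the plus strand for Reep1, chr7:19282374-19282623 on the plus strand for Rtn2, and chr19:7483292-7483541 on the minus strand for Rtn3. Capitals mark the GC box GGGCGG in either orientation, the only one of 7 searched motifs that these upstream stretches hold.
Reep1: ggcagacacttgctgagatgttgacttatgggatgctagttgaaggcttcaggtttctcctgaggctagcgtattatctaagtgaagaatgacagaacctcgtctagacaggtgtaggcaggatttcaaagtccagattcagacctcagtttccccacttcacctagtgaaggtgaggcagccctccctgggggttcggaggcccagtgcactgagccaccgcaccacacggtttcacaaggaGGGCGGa
Rtn2: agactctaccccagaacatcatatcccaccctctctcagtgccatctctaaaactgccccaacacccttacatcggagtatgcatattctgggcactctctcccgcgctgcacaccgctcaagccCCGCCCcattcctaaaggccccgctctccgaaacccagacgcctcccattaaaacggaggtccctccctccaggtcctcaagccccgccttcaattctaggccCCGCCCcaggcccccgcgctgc
Rtn3: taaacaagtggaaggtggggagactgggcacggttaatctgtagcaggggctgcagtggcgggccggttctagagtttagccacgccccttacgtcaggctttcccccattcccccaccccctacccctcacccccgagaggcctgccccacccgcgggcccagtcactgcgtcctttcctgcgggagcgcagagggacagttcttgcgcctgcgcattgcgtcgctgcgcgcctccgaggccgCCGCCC

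The upstream GC content was 53.2% for Reep1, 60.8% for Rtn2 and 67.2% for Rtn3, against a median of 52.4% over 32851 mouse promoter windows. It fell on both sides of that median for Rtn1 (45.2%, 46.0% and 72.4%) and Rtn4 (61.2%, 76.8% and 39.2%). Entries existed for 5 of the 10 members, with 9 windows in all, because Rtn1 and Rtn4 have 3 annotated starts each. Over the whole 300-base windows, which run to 50 bases past the start, a GC box occurred in 7 of the 9 windows and in 35.7% of all windows. The 9 windows come from 5 genes, and windows matched for GC content were not compared. The CCAAT box CCAAT was found in 2 of the 9 (37.4% of all windows) and the nuclear receptor core motif AGGTCA in 1, a start of Rtn1 (16.3% of all windows). The estrogen-related receptor site TCAAGGTCA (0.423% of all windows), the unfolded protein response element TGACGTGG (0.676%), the cAMP response element TGACGTCA (1.79%) and the E box CACGTG (7.15%) were found in 0 of the 9. Both orientations of each motif were counted, and the receptor site contains the core motif. Each gene has 1 row of values, which does not tell the starts apart. No entry was found for Reep2, Reep3, Reep4, Reep5 or Reep6.

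Some facts of the whole series bear on every value below. In wild type replicates 1 to 3 the targeted gene, Fndc5, stood at 8.42, 8.40 and 7.83, against 7.68, 5.49 and 5.45 in the knockout, so knockout replicate 1 was near the wild type range. Its difference of -2.01 had an adjusted p of 0.0359. The call was kept without knockout replicate 1 (-2.75, adjusted p = 0.00217) and lost in the other 5 fits that dropped 1 array (adjusted p from 0.0617 to 0.133). The position of the array probes relative to the deletion is not given in the sources used here, so these values alone do not settle the labels. On the first principal component of all genes, with 61.0% of the variance, knockout replicate 1 lay at 38.4, beside the other knockout arrays (40.5 and 31.3) and apart from the wild type arrays (-46.1 to -29.7), as the labels place it. The 8 cardiomyocyte markers had a mean between 10.99 and 11.40 on every array. Limma called 1 of the 8 higher, Pln, and 0 lower, with differences from -0.56 to 0.76. Sln, the sarcolipin gene of the atrium, stood at 10.80 in wild type replicate 1 against 3.83 and 5.54 in the others, and at 6.98 in knockout replicate 1 against 1.39 and 1.36. Myl7, an atrial myosin light chain looked up after Sln was seen, likewise read 10.16 and 5.09 in the arrays numbered 1 and at most 5.55 and 2.44 in the others of each group. Results are therefore also given without both arrays numbered 1. Leaving them out does not even out the atrial genes. In replicates 2 and 3, Myl7 stood at 4.22 and 5.55 in wild type against 2.44 and 1.33 in the knockout. Myl4, another atrial gene, stood at 5.72 and 7.05 against 2.49 and 2.68, and Sln was also higher in wild type. For Nppa, a further one, the wild type values of 6.78 and 9.38 enclosed both knockout values. The part of atrial tissue in the results below was not tested. Fibroblast markers were lower in the knockout for 5 of 8 genes, smooth muscle and pericyte markers for 5 of 8, with Rgs5 and Kcnj8 higher, and endothelial markers for 3 of 8. The median differences of these lists were -1.17 (from -2.85 to 0.10), -2.25 (from -3.04 to 1.49) and -0.45 (from -1.89 to 0.17). The log2 summed fibroblast level lay between 10.79 and 11.48 in wild type and between 10.52 and 10.65 in the knockout. For smooth muscle and pericytes it lay between 10.80 and 11.75 and between 10.70 and 10.91. Such sums are led by the brightest markers and understate the falls of dimmer ones. Dcn, the brightest fibroblast marker, differed by -0.01, and Rgs5 rose from a mean of 9.07 to 10.30. Macrophage and dendritic markers were lower for 1 of 8, adipocyte markers for 1 of 5, and limma called 0 of 8 skeletal muscle markers (3 lower at an unadjusted p under 0.05). Their part in the results below was not tested. In such bulk RNA, fewer cells of a type and less RNA per cell cannot be told apart. Values are log2 RMA summaries, and the number of arrays limits their precision.

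Among the 10 members, 3 were called higher in the knockout and 0 lower by limma at an adjusted p under 0.05, where 10.4% of all genes were higher, 6.18% lower and 16.6% changed in either direction. Calls were more frequent among bright genes: when all genes were divided by mean level into 10 classes of equal size, the share called higher ran from 6.86% in class 6 to 34.5% in class 10, the brightest. All 10 members lie in classes 6 to 10, where 20.2% of 11592 genes were called higher and 10.4% lower, so their count of 3 higher is near the share at these levels. At an unadjusted p under 0.05, 5 members were higher and 0 lower. The share of all genes at that unadjusted cut is not given here. This count and the unadjusted counts of the lists below therefore have no background beside them. The 3 knockout values lay above the 3 wild type values for 5 members, Reep1, Reep6, Rtn1, Rtn2 and Rtn3, and below them for 0, against 17.2% and 17% of all genes and 30.6% and 19.5% of the genes in classes 6 to 10. The median difference of the 10 members was 0.26, that of all genes -0.05. These medians are not matched for level: the class median rose from -0.10 in class 6 to 0.27 in class 10. Of all called genes 62.8% were higher, 56.5% after quantile normalization and 76.4% after centring each array on its median, the last of which moved the median difference of all genes by 0.11. Without knockout replicate 1, without knockout replicate 2 or without wild type replicate 3, 1 member was called higher, Reep6. Without both arrays numbered 1, 2 members were called higher, Reep6 and Rtn2.

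**Figure D1:**
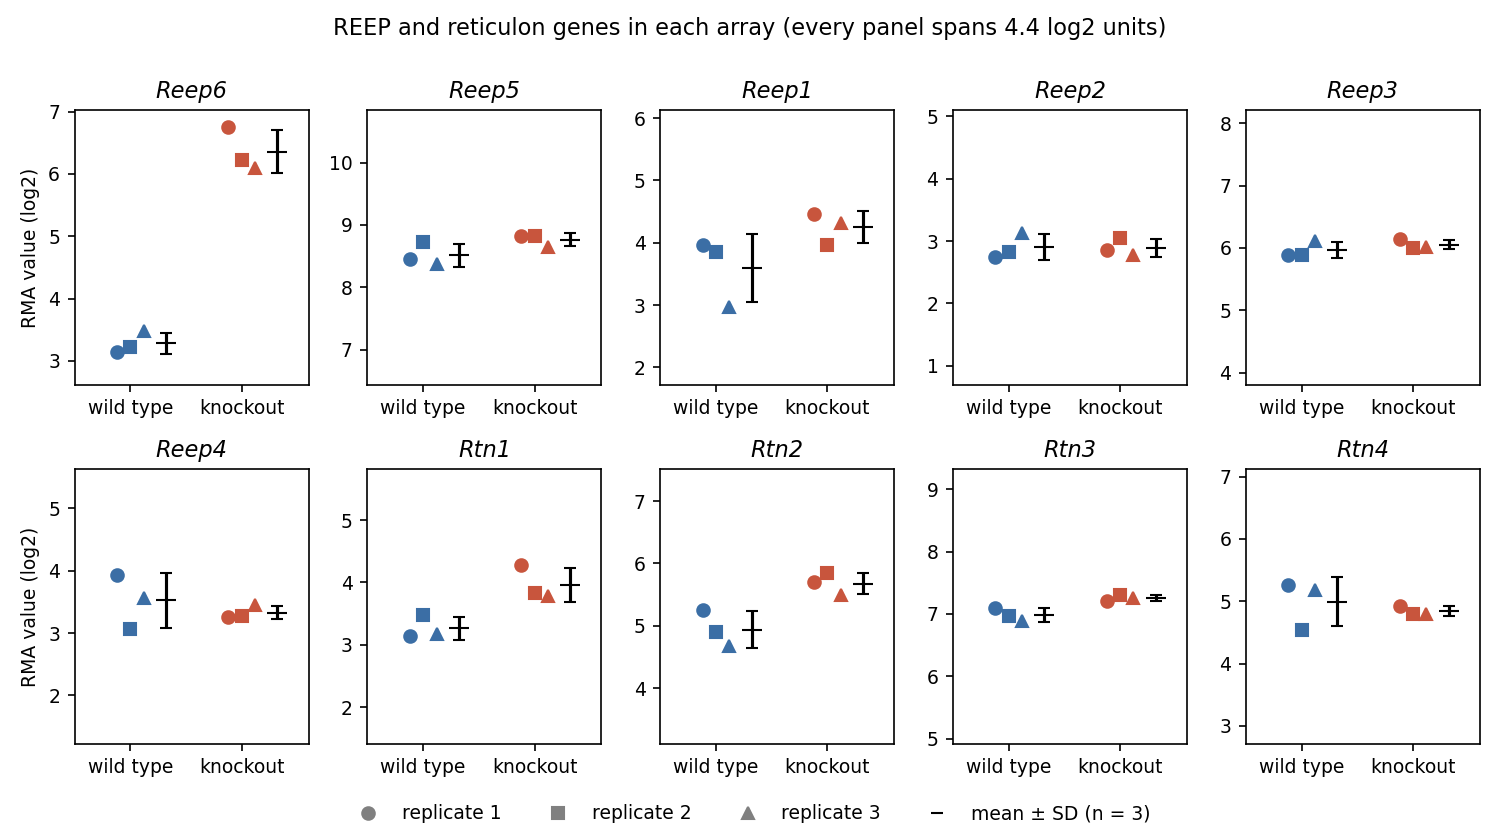
RMA values (log2, vertical axis) of the 10 genes in each of the 3 wild type (blue) and 3 knockout (red) arrays, with the mean and SD of each group in black. Each panel spans the same number of log2 units around its own centre; Reep6 is between 6.09 and 6.76 in the knockout and between 3.15 and 3.48 in wild type.

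Reep6 and Reep5 form the branch of the family related to the yeast protein Yop1. Reep6 is best known from rod photoreceptors, where its loss causes retinal degeneration. The wild type arrays, in replicate order, gave 3.15, 3.23 and 3.48, and the knockout arrays 6.76, 6.23 and 6.09. The groups were separated by a wide gap, and the highest value belonged to the knockout array in which Fndc5 was also highest. The mean was 6.36 ± 0.35 against 3.28 ± 0.17 (SD, n = 3), a difference of 3.08 (SE 0.19, 95% interval 2.65 to 3.51) or 8.44-fold, with an adjusted p of 0.000136. Only 4 of the 23185 genes had a larger positive difference. Over all 18 alternative fits the difference stayed between 2.81 and 3.21, and each gave a call. Without both arrays numbered 1 it was 2.81, with an adjusted p of 0.00297.

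Reep5, the member with a known role in the sarcoplasmic reticulum of heart muscle cells, did not pass the threshold. Its wild type values were 8.45, 8.72 and 8.37 and its knockout values 8.82, 8.83 and 8.64. The groups overlapped, since wild type replicate 2 lay above knockout replicate 3. The difference was 0.25 (95% interval -0.06 to 0.55, adjusted p = 0.269). Reep5 belonged to class 10 by mean level, and the median difference of that class was 0.27. Quantile normalization took the difference of Reep5 to 0.00060, whereas centring each array on its median took it to 0.36 (adjusted p = 0.116).

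Among the other REEP genes, which encode proteins that link the reticulum to microtubules, 0 of 4 passed the adjusted threshold in limma and Reep1 alone had an unadjusted p under 0.05. Reep1, mutated in a form of hereditary spastic paraplegia, read 3.97, 3.85 and 2.97 in wild type and 4.46, 3.97 and 4.32 in the knockout. The knockout values lay above the wild type ones, but knockout replicate 2 exceeded wild type replicate 1 only in the third decimal. The difference was 0.65 (SE 0.26, 95% interval 0.06 to 1.25, adjusted p = 0.135), and it was 0.34 without wild type replicate 3, the low array. Its adjusted p ran from 0.0672 to 0.327 over the alternatives.

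Reep4, which with Reep3 keeps the reticulum away from chromosomes during cell division, had the lowest difference of the 10. Its values were 3.94, 3.07 and 3.57 in wild type and 3.26, 3.28 and 3.44 in the knockout. Wild type replicate 2 was below every knockout array and wild type replicates 1 and 3 above every one. The difference of -0.20 (adjusted p = 0.597) changed with single arrays: it was 0.0099 without wild type replicate 1 and -0.43 without wild type replicate 2. Reep3 lay between 5.89 and 6.11 in wild type and between 5.99 and 6.14 in the knockout, a difference of 0.09 (95% interval -0.19 to 0.36) that turned to -0.083 after quantile normalization. Reep2, a mainly neuronal member, lay between 2.75 and 3.13 in wild type and between 2.77 and 3.06 in the knockout. Its difference of -0.01 (95% interval -0.34 to 0.32) changed sign under both scalings.

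The reticulons were higher for 2 of 4 genes. Rtn2, a reticulon of skeletal and heart muscle as well as brain, read 5.25, 4.90 and 4.67 in wild type and 5.70, 5.84 and 5.50 in the knockout. All 3 knockout arrays were above all 3 wild type arrays, although wild type replicate 1 came near knockout replicate 3. The difference was 0.74 (SE 0.17, 95% interval 0.35 to 1.13), or 1.67-fold, with an adjusted p of 0.0205. The call was lost without wild type replicate 3 (adjusted p = 0.0575), knockout replicate 1 (0.0719) or knockout replicate 2 (0.0881). It was kept without both arrays numbered 1 (difference 0.89, adjusted p = 0.0288) and under both scalings (adjusted p = 0.0119 after centring and 0.0345 after quantile normalization).

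Rtn1, known as a marker of neurons and neuroendocrine cells, stood at 3.14, 3.48 and 3.18 in wild type and 4.28, 3.83 and 3.78 in the knockout. The groups did not overlap, and knockout replicate 1 was the highest. The difference of 0.70 (SE 0.17, 95% interval 0.31 to 1.08), or 1.62-fold, had an adjusted p of 0.0239. It lost its call without wild type replicate 1 (adjusted p = 0.0546), wild type replicate 3 (0.0716), knockout replicate 1 (0.0757) or knockout replicate 2 (0.0581). Without both arrays numbered 1 it was 0.48 (adjusted p = 0.127). Of 10 measured neuron and Schwann cell markers limma called 0 in either direction, and 3, Uchl1, Sox10 and Prph, were lower at an unadjusted p under 0.05. Their summed level on the log2 scale lay between 5.83 and 5.92 in wild type and between 5.57 and 5.78 in the knockout. S100b was the lowest of them, with a mean of 0.96 over the arrays, at percentile 10.5 of all genes by mean level. The dimmest of these markers are not told apart from background. The part of such cells in the Rtn1 values was not tested.

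Rtn3, a receptor for autophagy of reticulum tubules, read 7.09, 6.97 and 6.88 in wild type and 7.21, 7.30 and 7.25 in the knockout. Its groups did not overlap, but the difference was small at 0.27 (SE 0.11, 95% interval 0.01 to 0.53, adjusted p = 0.151). Like Reep5 it belongs to the brightest class of genes. Quantile normalization left 0.06, whereas centring each array on its median gave 0.38 (adjusted p = 0.0589). Rtn4 encodes Nogo, a reticulon that shapes tubules in most cells and inhibits axon growth in the nervous system. Its values were 5.26, 4.54 and 5.18 in wild type and 4.93, 4.80 and 4.79 in the knockout. As for Reep4, the knockout values sat between a low wild type replicate 2 and higher replicates 1 and 3. The difference was -0.15 (95% interval -0.59 to 0.28, adjusted p = 0.662), and -0.38 without wild type replicate 2 (adjusted p = 0.0906). Wild type replicate 2 was also lowest of its group in the mean of the fibroblast markers (6.81 against 7.67 and 7.64) and of the smooth muscle and pericyte markers (6.61 against 7.24 and 7.98). Whether this bears on Rtn4 and Reep4 was not tested.

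**Figure D2:**
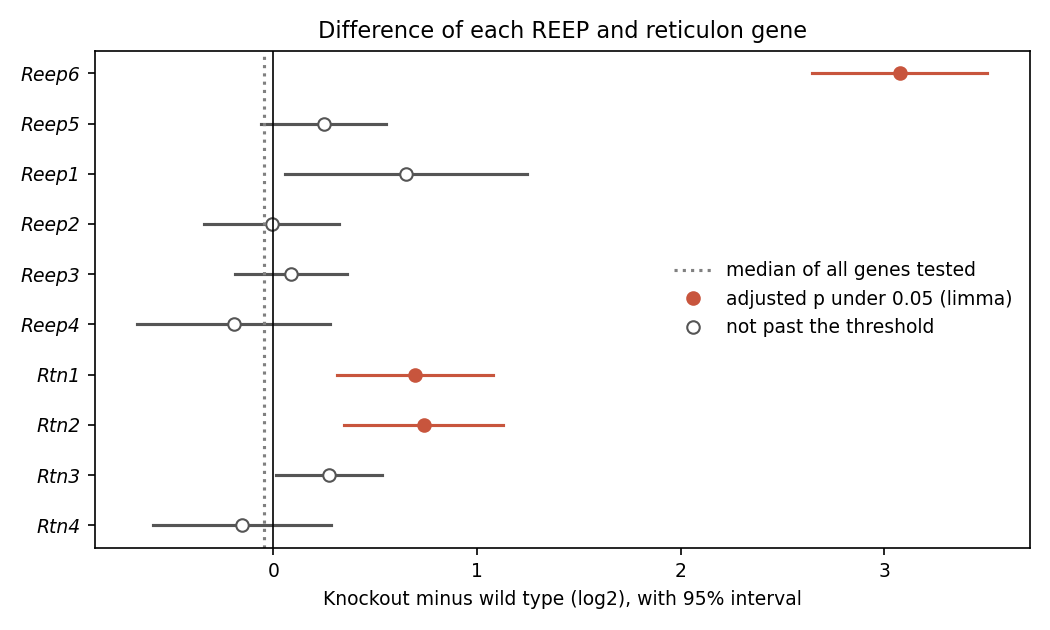
Difference of each gene between knockout and wild type (log2, horizontal axis) with its 95% interval from limma. Reep6 at 3.08 stands apart; Rtn1 at 0.70 and Rtn2 at 0.74 are the other filled points, past the adjusted threshold, and the dotted line marks the median of all genes at -0.05.

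Genes next to Reep6 on the chromosome did not pass the threshold. Of its 6 nearest measured neighbours, 3 on each side, 0 were called by limma, and their differences lay between -0.15 and 0.29. The closest were Pcsk4 at -0.15, a proprotein convertase gene, and Adamtsl5 at 0.29. Around all 10 members, 7 of 60 neighbours (11.7%) were called higher and 8 (13.3%) lower, against 10.4% and 6.18% of all genes. Among the lower ones was the atlastin gene Atl3, which lies beside Rtn3.

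**Figure D3:**
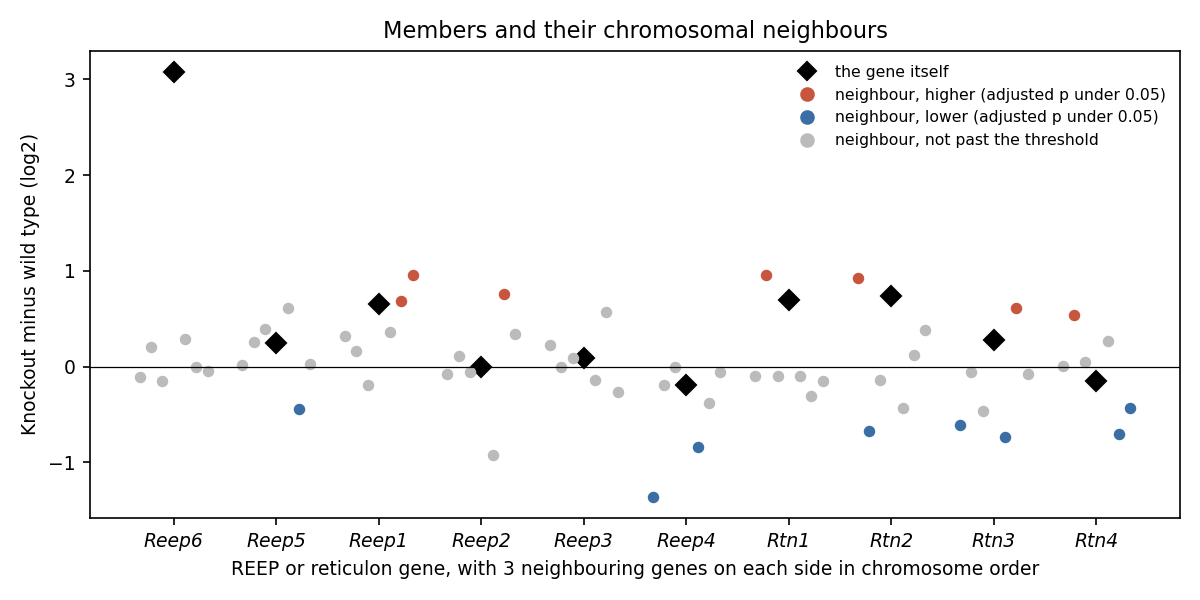
Difference between knockout and wild type (log2, vertical axis) of each member (black diamond) and of 3 neighbouring measured genes on either side in chromosome order (circles; red called higher, blue called lower, grey not past the threshold). The neighbours of Reep6 lie between -0.15 and 0.29 while the gene itself is at 3.08.

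Over the 6 arrays the 5 genes whose pattern was most like that of Reep6, among 11592 other genes of more than median level, were the Apoo pseudogene Apoo-ps (Pearson r = 0.9997), Vezt (0.998), Sfmbt1 (0.998), Man2a2 (0.997) and 1810030O07Rik (0.997). All 5 were called higher, with differences of 1.87, 0.67, 1.15, 0.37 and 1.44. With 2 groups that differ this widely, r describes the group difference together with the order of arrays within it. Vezt encodes a protein of adherens junctions and Man2a2 a Golgi mannosidase.

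The companion lists that follow were written with earlier results of these data known. Most of their genes are bright, and in classes 8 to 10 by level 26.9% of genes were called higher and 11.3% lower, against 10.4% and 6.18% of all genes. The number of genes in those classes was 12 of 13 for partners in shaping, 9 of 11 for autophagy of the reticulum and 3 of 11 for Nogo receptors and reticulon partners. It was 13 of 14 for membrane insertion and lectins, 8 of 10 for contact sites and 15 of 17 for the sarcoplasmic reticulum and T-tubules. The counts below are therefore no sign that a list stands apart.

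Other genes that shape the reticulum went both ways. Of 17 listed partners 13 were found by symbol and 4 (Atl2, Arl6ip1, Arl6ip5 and Tmem170a) were not analysed here. Of the 13, 2 were higher, 2 lower and 9 not past the threshold, with a median difference of -0.0037, which was -0.22 after quantile normalization and 0.11 after centring. The lower calls numbered 1 after centring. Lnpk (lunapark) read 4.05, 3.96 and 3.27 in wild type and 4.79, 4.72 and 4.87 in the knockout, a difference of 1.03 (SE 0.20, adjusted p = 0.00973). Rab10, a GTPase of growing tubules, was 0.76 higher (adjusted p = 0.0135). Ckap4 fell by 0.84 (adjusted p = 0.0354) and Atl3 by 0.74 (adjusted p = 0.0208), whereas the atlastin Atl1 differed by -0.0033 (adjusted p = 0.988). Lnpk kept its call in each fit that left out 1 array, and Rab10 lost it without knockout replicate 2 (0.0604). Atl3 lost it without wild type replicate 3 (0.0534), knockout replicate 1 (0.0839) or 2 (0.0775). Ckap4 lost it without wild type replicate 3 (0.0505) or any knockout array (0.0922, 0.116 and 0.104). Without both arrays numbered 1, Lnpk and Rab10 were still called and Atl3 and Ckap4 were not (0.119 and 0.0537).

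Genes of autophagy of the reticulum were higher for 3 of 11 and lower for 0, with a median difference of 0.29 that was 0.14 after quantile normalization and 0.41 after centring. Retreg1, also known as FAM134B, is a receptor that delivers reticulum sheets to autophagosomes and carries a membrane hairpin domain of the reticulon kind. It read 6.70, 6.98 and 6.62 in wild type and 9.36, 9.23 and 8.79 in the knockout, with every knockout array above every wild type array. The means were 6.76 ± 0.19 and 9.13 ± 0.30 (SD, n = 3), a 5.14-fold difference (2.36 on the log2 scale, SE 0.17, adjusted p = 0.000266), and 26 genes of the array had a larger rise. Its relatives Retreg2 and Retreg3 differed by -0.20 (adjusted p = 0.354) and 0.01 (adjusted p = 0.984). Calcoco1, a soluble receptor for the same process, rose 3.02-fold from 7.23 ± 0.12 to 8.82 ± 0.17 (SD, n = 3, adjusted p = 0.000384). Ufl1, the ligase that attaches the modifier UFM1, was 1.59-fold higher (adjusted p = 0.00835). All 3 calls held in each fit that dropped a single array and without both arrays numbered 1.

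**Figure D4:**
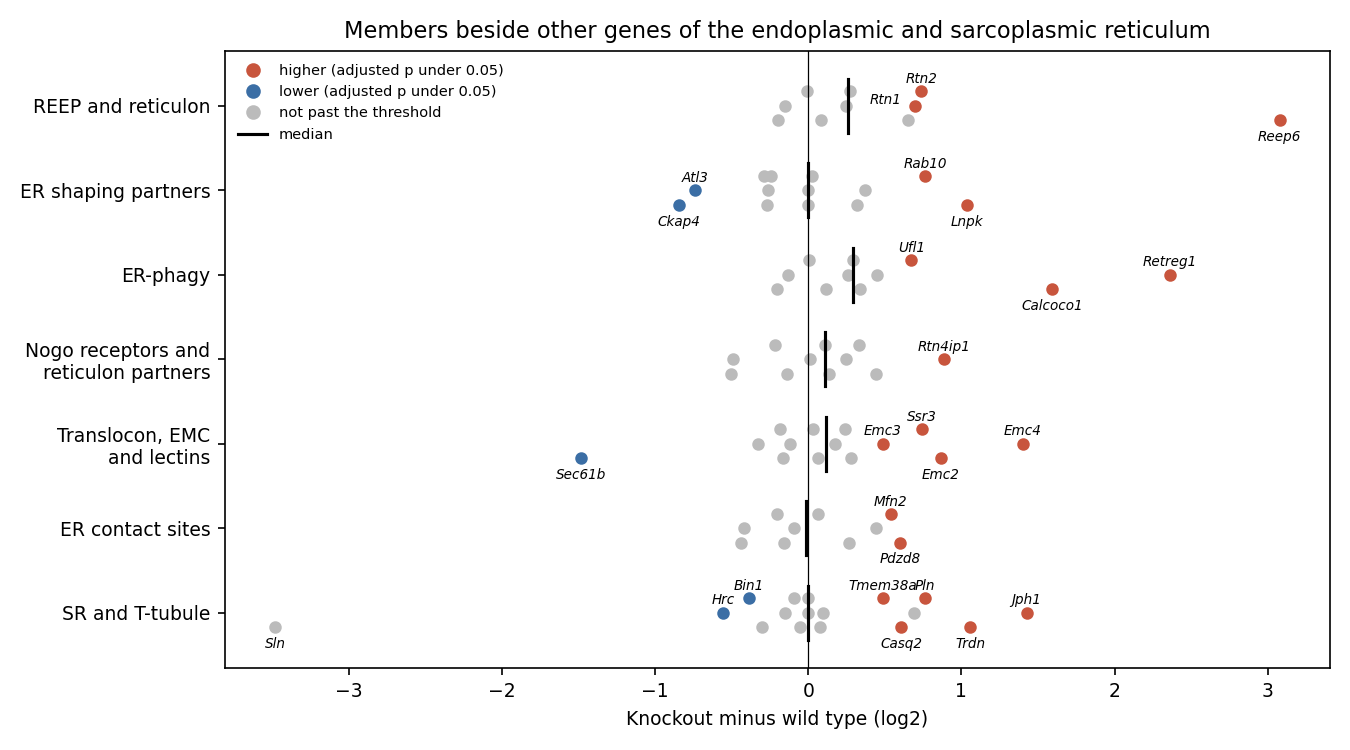
Differences between knockout and wild type (log2, horizontal axis) of the members and of 6 lists of other reticulum genes, with 1 point per gene (red called higher, blue called lower, grey not past the threshold) and a black bar at each median. Reep6 at 3.08 and Retreg1 at 2.36 lie farthest to the right; Sln at -3.48, uneven among wild type arrays, lies farthest to the left without a call.

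Receptors of Nogo and other partners of reticulons held 1 higher gene and 0 lower among 11 in limma, with 1 higher and 2 lower at an unadjusted p under 0.05. The median difference was 0.11, but 0.0035 without wild type replicate 2, 0.021 without wild type replicate 3, 0.070 after quantile normalization and 0.22 after centring. The lower calls numbered 2 without knockout replicate 3 and 1 with the dimmest 30% of genes left out or with the replicate block. Ngfr, a neurotrophin receptor gene, came close to the threshold in the fit of all 6 arrays (-0.49, adjusted p = 0.0557). The higher gene was Rtn4ip1, a mitochondrial oxidoreductase named for its binding to RTN4, at 7.10, 7.21 and 7.13 in the knockout against a wild type mean of 6.26 ± 0.31 (SD, n = 3; difference 0.88, SE 0.16, adjusted p = 0.00820). The Nogo receptor gene Rtn4r was uneven within both groups, from 2.99 to 4.02 in wild type and from 3.61 to 4.58 in the knockout (adjusted p = 0.399).

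Genes for protein insertion into the reticulum membrane and for its lectin chaperones were higher for 4 of 14 and lower for 1, with a median difference of 0.12 that turned to -0.026 after quantile normalization and was 0.23 after centring. Emc4, Emc2 and Emc3, subunits of the membrane insertase EMC, were higher by 1.40, 0.87 and 0.49 (adjusted p = 0.000563, 0.00485 and 0.0239), and Ssr3 of the translocon-associated complex by 0.74 (0.0142). Sec61b, a small subunit of the translocon, fell 2.80-fold from 5.28 ± 0.23 to 3.80 ± 0.27 (SD, n = 3, adjusted p = 0.00134). Dropping any single array but wild type replicate 1 ended the call of Emc3 (adjusted p up to 0.0979), and dropping both arrays numbered 1 did too (0.0606). Ssr3 lost its call without knockout replicate 1 (0.0617) or 2 (0.0638). The genes called higher numbered 2 without either of those knockout arrays.

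Genes of contacts between the reticulum and other membranes were higher for 2 of 10 and lower for 0 in limma (3 and 2 at an unadjusted p under 0.05), with a median difference of -0.013 that was 0.098 after centring. Quantile normalization gave 1 higher and 1 lower, and centring 3 higher and 0 lower. Pdzd8, which encodes a lipid transfer protein, was higher by 0.60 and the mitochondrial fusion gene Mfn2 by 0.54 (adjusted p = 0.0140 and 0.0250). Pdzd8 lost its call without knockout replicate 2 (0.0594) or 3 (0.0547). Mfn2 lost it without wild type replicate 3 (0.0711), knockout replicate 1 (0.0543), 2 (0.103) or 3 (0.0722) and without both arrays numbered 1 (0.0765).

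In the sarcoplasmic reticulum and T-tubule list 5 of 17 genes were higher and 2 lower, with a median difference of 0.0012. Quantile normalization gave 3 higher and 1 lower (median -0.066), and centring 6 higher and 0 lower (median 0.11), so that the lower calls of Hrc and Bin1 described below rest on the scaling. Jph1, a junctophilin that ties the reticulum to the cell membrane, was 2.69-fold higher and Trdn, which encodes triadin, 2.08-fold higher (adjusted p = 0.00126 and 0.00620), and both calls held whichever single array was dropped. The calcium binding protein gene Casq2, the phospholamban gene Pln and the cation channel gene Tmem38a were higher by 0.61, 0.76 and 0.49. These 3 calls were lost without any 1 knockout array (adjusted p from 0.0699 to 0.106), and that of Tmem38a also without wild type replicate 3 (0.0777). The same 3 calls were lost without both arrays numbered 1. The 2 lower genes, Hrc and Bin1, fell by 0.56 and 0.39 (0.0363 and 0.0458). Hrc kept its call only without wild type replicate 1 among those 6 fits (otherwise up to 0.125) and Bin1 in 0 of them (up to 0.150). Neither was called without both arrays numbered 1 (0.0525 and 0.121), whereas Sln then was (-3.31, adjusted p = 0.0112). Atp2a2, the calcium pump of this compartment, differed by 0.08 (adjusted p = 0.747) and Ryr2, its release channel, by -0.15 (adjusted p = 0.590).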

How the data were processed

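Per the labels' protocols, RNA came from a TRIzol extraction and was biotin-labelled with an Affymetrix WT Plus kit. The authors deposited values that were taken here to be on a log2 scale. The submitters' processing notes name RMA, the package affy (version 1.61.0) and R (version 3.6.0). How probes were grouped into genes, and on which genome, was not given in the sources used here. Array medians differ by up to 0.143, and the log2 scale was inferred from the values.

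Of 25206 rows, 23185 had 1 gene symbol and were tested with limma 3.58.1 (lmFit and eBayes, R 4.3.3; a two-sided test of genotype without covariates). P-values were adjusted by Benjamini-Hochberg across these genes and called under 0.05. Dim genes were kept. The code was tested on simulated data. The members, lists and naming rule (all members, and in each list up to 4 called genes by p, or the 2 of lowest p) were chosen with earlier results of these data known. Emc3, Tmem38a, Hrc, Bin1, Sln, Myl7, Myl4, Nppa, Rgs5, Kcnj8, Uchl1, Sox10, Prph, S100b, Atl1, Retreg2, Retreg3, Rtn4r, Ngfr, Atp2a2 and Ryr2 were named after their values were seen. Alternatives are quantile normalization, centring on array medians, filters on the dimmest 30% or 50%, all rows, other variance models, array weights, a replicate block, dropping single arrays, thresholds of 0.01 and 0.10 and, added after the data were seen, dropping both arrays numbered 1. RefSeq (GRCm38.p6) supplied promoters and the order of neighbouring genes. Plots used matplotlib 3.10.9.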

Additional observations from a re-analysis of the deposited data

How the results depend on the processing

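The alternatives include the main fit read at thresholds of 0.01 and 0.10. Of the differences of members under them, 162 kept their direction and side of the threshold, 10 (Rtn1 and Rtn2) lost their call and 8 changed sign. Reep2 turned to 0.071 after quantile normalization, 0.10 after centring, 0.11 without wild type replicate 3, and 0.01 and 0.05 without knockout replicate 1 or 3, with a range from -0.090 to 0.11 without 1 array. Reep3 turned to -0.083 after quantile normalization. Reep4 ranged from -0.43 to 0.0099 without 1 array, the latter without wild type replicate 1, and was 0.045 without both arrays numbered 1. The cause was not tested. Members called higher numbered 1 to 3 without 1 array and 1 at an adjusted p under 0.01, and 0 were lower in every setting run. Over all genes, 1403 to 2570 were called higher and 701 to 1593 lower without 1 array, 1256 and 528 at a threshold of 0.01, 2212 lower at 0.10 and 938 lower without both arrays numbered 1. All 10 members were kept when the dimmest 50% of genes were left out. List medians changed sign with the scaling for partners that shape the reticulum (-0.22 and 0.11) and the sarcoplasmic list (-0.07 and 0.11). They also did so for membrane insertion and lectins (-0.026 and 0.23) and for contact sites (-0.020 and 0.098). Same-numbered deviations from the group means correlated at 0.09, 0.05 and 0.07. Such weak values do not settle whether the replicate numbers pair the samples. Wild type replicates 1 and 3 correlated best with the knockout array of their own number (0.090 and 0.070) and wild type replicate 2 with knockout replicate 3. With the replicate block 3 members were called higher and 0 lower. Leaving out the last 50 bases of the promoter windows lowered the share with a GC box to 32.7%. No detection calls were used, so low values are not told apart from background.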

Other observations

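The 5 genes most like Reep4 over the 6 arrays, by the same rule as for Reep6, were Cyp1b1 (Pearson r = 0.985), H1f4 (0.975), Prss23 (0.975), Rell1 (0.975) and E130308A19Rik (0.975). None was called by limma, and in all 5, as in Reep4, wild type replicate 1 was the highest and wild type replicate 2 the lowest array. The wild type arrays of Cyp1b1, in replicate order, gave 2.93, 1.95 and 2.55 and the knockout arrays 2.09, 2.18 and 2.49.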
